A study of Mus musculus with 14 samples.

Results

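The Il7r locus was described from bulk ATAC-seq of mouse Treg cells, an assay in which a transposase cuts open chromatin, so that reads pile up at accessible regulatory elements. A window of the count table was taken as an Il7r window when its centre had Il7r as the nearest protein-coding start site, within 100 kb. Of 240778 windows in all, 60 met this rule, and because 34 of them overlapped another Il7r window they made up 39 separate regions. Il7r (gene 16197) lies on the minus strand of chromosome 15, from 9506159 to 9529941 in RefSeq coordinates of GRCm38, and its neighbours are Capsl on the 3′ side and Spef2 on the 5′ side. The windows ran from 9528013 to 9623554, with 56 upstream of the Il7r start site, 4 inside the gene and 0 beyond its 3′ end. Each was a short window around a peak summit, and coordinates are those of the table's row names.

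Il7r encodes the α chain of the interleukin 7 receptor (CD127), which pairs with the common γ chain to bind IL-7 and with Crlf2 to bind TSLP. Signalling of IL-7 through its receptor runs over Jak1, Jak3 and Stat5 and maintains the survival of naive and memory T cells. Conventional CD4 T cells carry much CD127, whereas Treg cells carry less of it, and the locus has been described as one that Foxp3 represses and Foxo1 activates.

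Every mouse carried the Foxp3AID allele, in which Foxp3 is fused to an auxin-inducible degron and the same allele also gives ZsGreen and Cre recombinase. The mice differed in the R26 locus, which either held TIR1(F74G), the plant ligase that marks the fusion protein for degradation in the presence of 5-ph-IAA, or was wild type. All mice received 5-ph-IAA, for 3 days in 4 R26TIR1(F74G) and 4 R26WT mice and for 7 days in 3 mice of each genotype, so R26WT mice controlled for the degron and the ligand but not for TIR1 or its mCherry reporter. TIR1 was switched on by the Cre made from the Foxp3 allele, which limits it to cells that express or have expressed Foxp3. Cells came from spleen and lymph nodes of individual mice, and the labels call them Treg cells without an activation state, age or sex. The comparison asks whether accessibility at Il7r differed once Foxp3 had been degraded.

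Libraries held between 5653289 and 20184487 counts in windows and between 1069 and 3967 counts in Il7r windows. The shallowest were replicate 1 of R26TIR1(F74G) on day 3, with 5653289 counts, and replicate 3 of R26WT on day 7, with 6348754. Among 10 B cell, myeloid, CD8 and NK cell markers with a window within 1 kb of their start site, levels ran from Itgam with 1.12 CPM (counts per 1000000 library counts) to Cebpb with 12.6 CPM, while Ms4a1, Cd79a, Pax5, Lyz2, Csf1r, Ncr1 and Klrb1c had no such window. Of the 8 Treg and CD4 T cell markers 6 had such a window, and Foxp3 and Tnfrsf18 had none. Their levels ran from Ikzf4 with 3.20 CPM and Cd4 with 4.55 CPM to Ikzf2 with 20.9 CPM, so they overlapped those of the other cell types. Foxp3 degradation acts on the protein, so these counts hold no direct check of it.

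The most accessible Il7r window was not at the start site but 3.5 kb upstream of it (chr15:9533365-9533566), with 14.5 CPM on average over the 14 mice. It was followed by the window 45.0 kb upstream (chr15:9574849-9575050) with 11.9 CPM, the one 1.6 kb inside the gene (chr15:9528256-9528457) with 11.6 CPM and the one 45.3 kb upstream (chr15:9575111-9575312) with 7.84 CPM. The window nearest the start site, 105 bp inside the gene (chr15:9529736-9529937), was the next, with 7.52 CPM. Among the best windows within 1 kb of the start sites of 11441 genes, whose median was 16.5 CPM, this Il7r window stood at percentile 28.6. The remaining windows reached down to 0.787 CPM, and the median of the 60 was 2.17 CPM, against 1.80 CPM for all windows of the table.

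**Figure D1:**
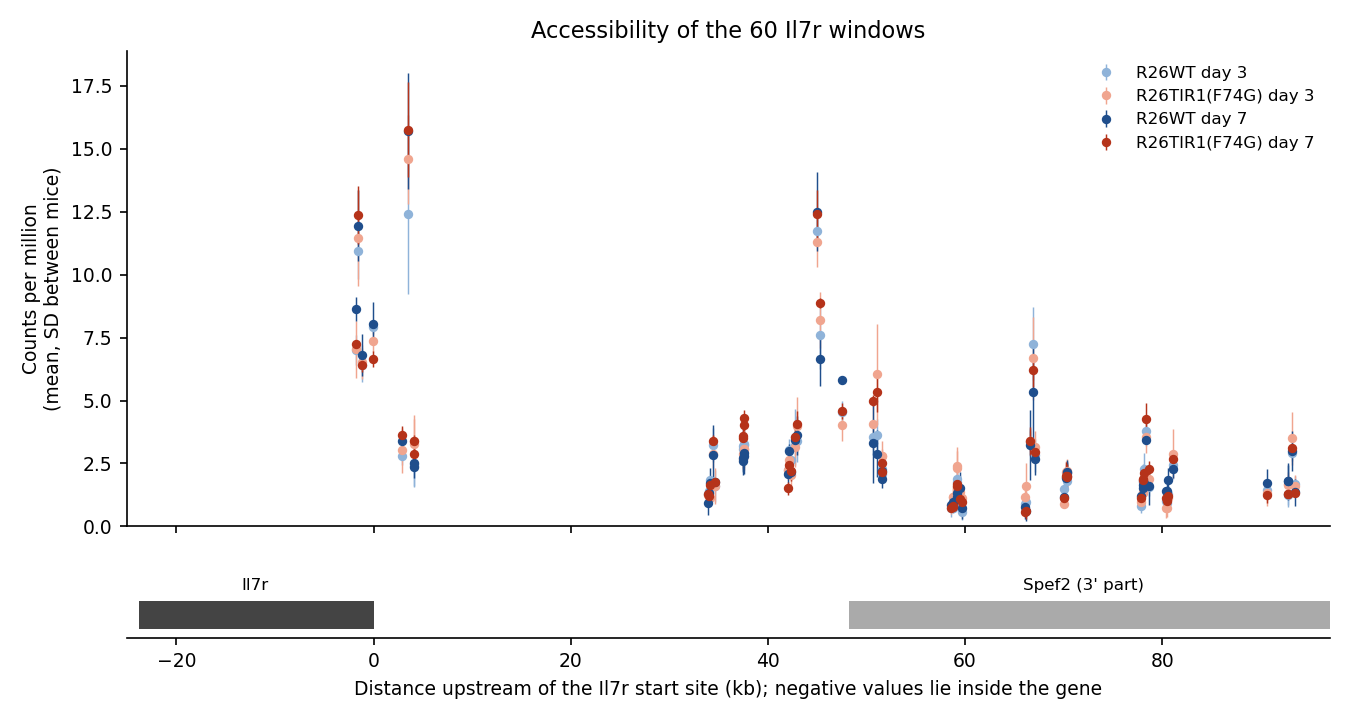
Accessibility of the 60 Il7r windows (vertical axis, mean CPM with SD between mice, linear scale) against distance upstream of the Il7r start site in kb, for 4 groups of 3 or 4 mice, with the bodies of Il7r and Spef2 drawn to scale below. The highest points lie 3.5 kb and 45.0 kb upstream and 1.6 kb inside the gene, and at 51.1 kb upstream the R26TIR1(F74G) means are 5.32 and 6.05 CPM and the R26WT means 2.89 and 3.65 CPM.

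The Il7r windows fell into 11 stretches when split at gaps of more than 2500 bp. The 4 windows at the 5′ end of the gene held 21.6% of the locus signal, counted over the 41 windows that do not overlap, and the stretch from 2846 to 4123 bp upstream held 13.4%. The largest share, 23.9%, belonged to the stretch from 42004 to 47535 bp upstream. Of all Il7r windows 35 lay inside the body of Spef2, the sperm flagellar gene whose 3′ part reaches to within 48.3 kb of the Il7r start site. Nearest start site is therefore a rule of assignment only, and no measurement here ties a window to the gene it regulates.

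The promoter is shown because the window nearest the start site covers it from base 190 to base 300. The 300 bases below are the RefSeq promoter of Il7r (GRCm38.p6, chr15:9529827-9530126, minus strand, 250 bases before and 50 after the start used there), with matches to 3 motifs in capitals.

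Il7r promoter: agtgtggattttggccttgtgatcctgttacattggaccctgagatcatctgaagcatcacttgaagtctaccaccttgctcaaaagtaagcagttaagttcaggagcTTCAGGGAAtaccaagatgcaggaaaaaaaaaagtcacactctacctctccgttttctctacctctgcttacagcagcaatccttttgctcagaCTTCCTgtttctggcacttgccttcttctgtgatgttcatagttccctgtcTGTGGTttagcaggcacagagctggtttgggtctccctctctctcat

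Both strands were searched, and no 2 of the matches overlap. The STAT motif TTCNNNGAA matched from base 109, outside the window, and is held by 8.30% of 32851 promoters of the same length. The ETS motif AGGAAG matched on the reverse strand at bases 203 to 208 (35.4% of promoters) and the RUNX motif TGTGGT at bases 254 to 259 (16.8%), both inside the window. The FOXO motif GTAAACA, held by 3.65% of promoters, and the glucocorticoid receptor motif TGTTCT, held by 19.0%, had 0 matches in these 300 bases.

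Summed over the 41 windows, accessibility of the locus differed between genotypes on each day by less than the SD between mice. On day 3 the sum was 146, 152, 150 and 145 CPM in the 4 R26WT mice and 165, 147, 160 and 146 CPM in the 4 R26TIR1(F74G) mice. On day 7 it was 163, 161 and 131 CPM in R26WT mice and 156, 156 and 165 CPM in R26TIR1(F74G) mice. The genotypes overlapped on both days, and the lowest value belonged to the shallow R26WT library of day 7. The highest value belonged to the shallowest library, replicate 1 of R26TIR1(F74G) on day 3.

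In order of their means, R26WT on day 3 stood at 148 ± 3.39 CPM (SD, n = 4), R26WT on day 7 at 152 ± 17.7 CPM (SD, n = 3), R26TIR1(F74G) on day 3 at 155 ± 9.58 CPM (SD, n = 4) and R26TIR1(F74G) on day 7 at 159 ± 5.21 CPM (SD, n = 3). Neighbours in this order did not differ beyond their spread. The difference between genotypes was 0.06 on the log2 scale on day 3 and 0.08 on day 7, each below the SD between mice of 0.07 and 0.13, and the day 7 difference was -0.02 without the shallow R26WT library.

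**Figure D2:**
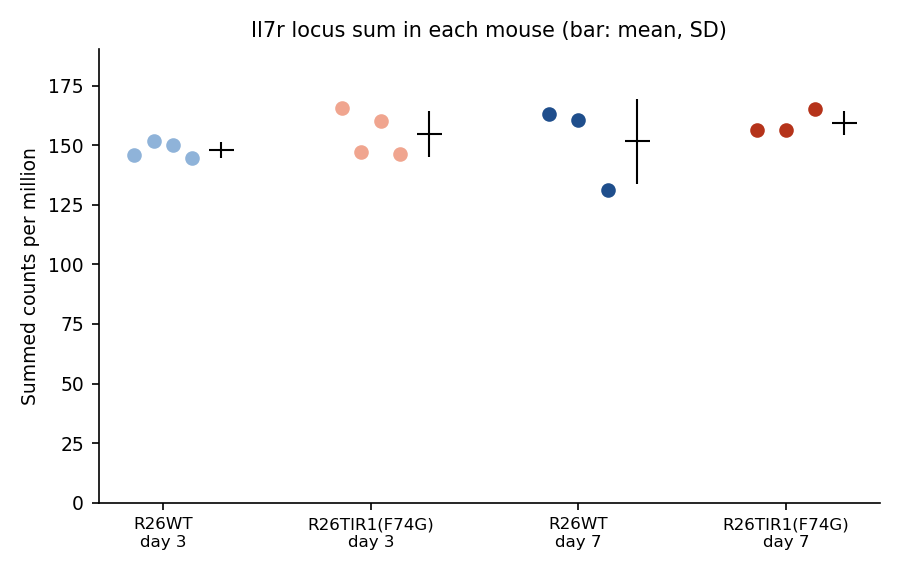
Summed CPM over 41 Il7r windows that do not overlap (vertical axis, from 0) in each of the 14 mice, by genotype and day, with the mean and SD of each group as a bar beside the points. The points lie between 131 and 165 CPM, and the genotypes overlap within each day.

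No single Il7r window passed an adjusted p of 0.05 between genotypes in the quasi-likelihood test of edgeR, with p-values adjusted by Benjamini-Hochberg over all windows tested. On day 7 the count was 0 of 60, where 0.00463% of all windows were called, on day 3 it was 0 of 59, where 0% were called, and with both days in one fit it was 0 of 60, where 0.0112% were called. DESeq2 also called 0 Il7r windows in each comparison. Over both days, however, it gave the window 51.1 kb upstream no adjusted p, so this window could not be called there. At an unadjusted p under 0.05 edgeR gave 7 Il7r windows on day 7 (11.7%, against 5.95% of all windows). It gave 4 on day 3 (6.78%, against 7.55%) and 6 over both days (10.0%, against 6.73%). DESeq2 gave 3, 2 and 6 Il7r windows at this level. The shares of all windows are those of edgeR, so the DESeq2 counts have no background beside them. In edgeR's test 6 were higher and 1 lower on day 7, 2 and 2 on day 3, and 5 and 1 over both days. All windows gave 2.75% higher and 3.20% lower on day 7, and 3.16% and 3.57% over both days. The day 7 windows 37548 and 37625 bp upstream overlap each other.

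The differences were small and went both ways. Of the Il7r windows 32 were higher and 28 lower in R26TIR1(F74G) mice on day 7, with a median log2 fold change of 0.03, against -0.0066 for all windows. On day 3, 32 were higher and 27 lower with a median of 0.04, against 0.0078 for all windows. Over both days the median was 0.04 against 0.0034, and 58 of the 60 windows had a log2 fold change of less than 0.5 in either direction.

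**Figure D3:**
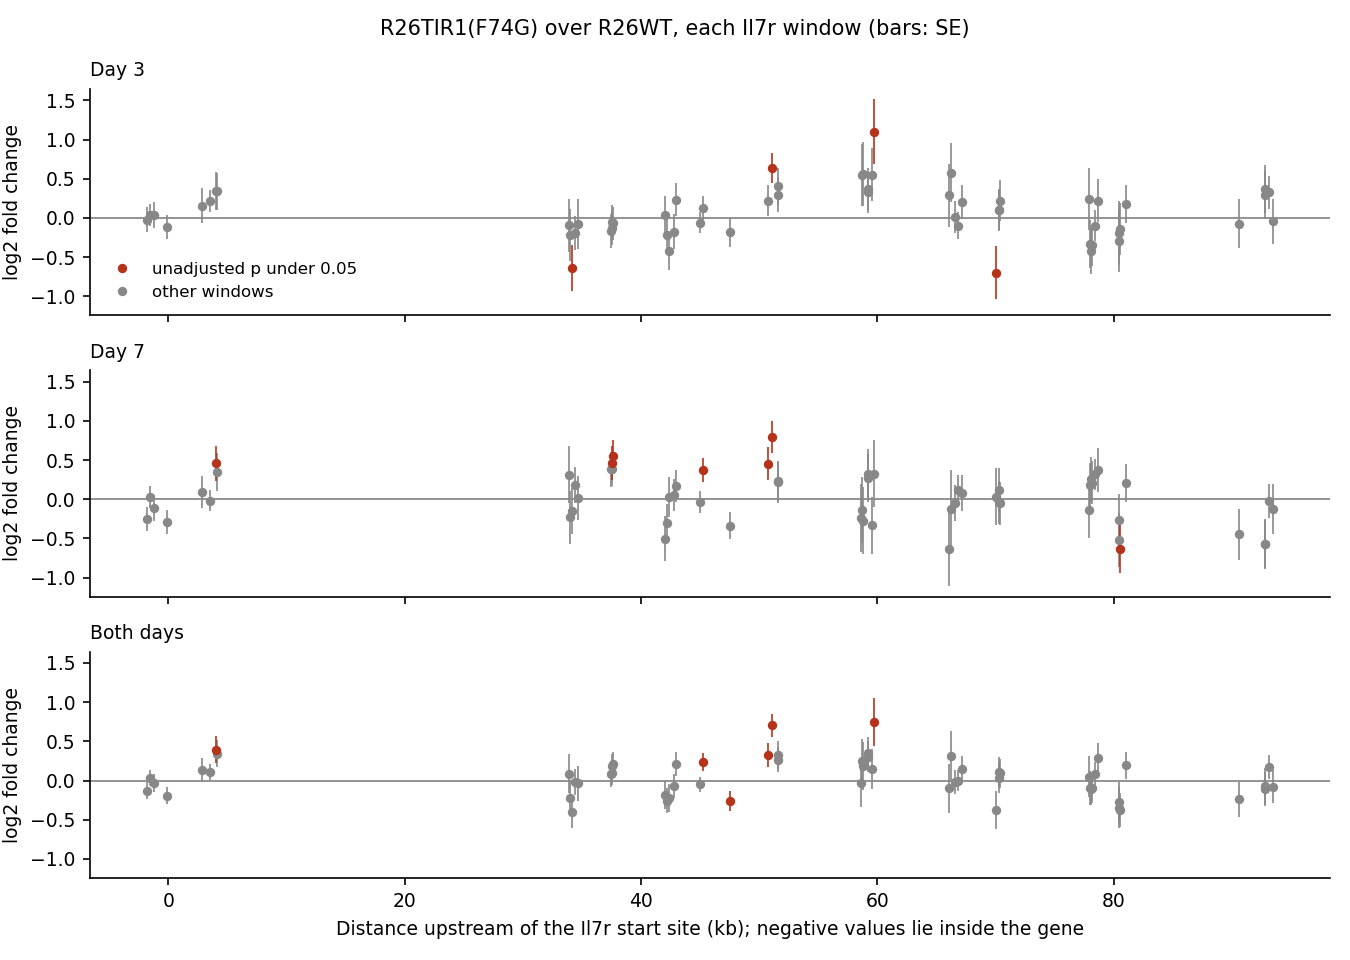
Log2 fold change of each Il7r window, R26TIR1(F74G) over R26WT (vertical axis, with SE as bars), against distance upstream of the start site in kb, for day 3, day 7 and the fit of both; red points have an unadjusted p under 0.05 in edgeR's test. The window 51.1 kb upstream is red in all 3 panels (0.64, 0.79 and 0.70), and the window 105 bp inside the gene lies below 0 (-0.12, -0.29 and -0.19).

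The window 51.1 kb upstream of Il7r, inside the body of Spef2 (chr15:9580954-9581155), had the smallest p of the locus on both days and in the joint fit. It is described because it was chosen by that rule, and its adjusted p-values are those over the whole table. On day 3 its accessibility was 3.20, 3.04, 4.10 and 4.25 CPM in R26WT mice and 8.99, 5.26, 5.22 and 4.75 CPM in R26TIR1(F74G) mice. On day 7 it was 3.49, 3.37 and 1.80 CPM in R26WT mice and 5.94, 4.47 and 5.56 CPM in R26TIR1(F74G) mice. All 7 R26TIR1(F74G) mice were above all 7 R26WT mice, also across days.

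The means were 3.65 ± 0.613 and 6.05 ± 1.97 CPM (SD, n = 4) on day 3 and 2.89 ± 0.944 and 5.32 ± 0.762 CPM (SD, n = 3) on day 7, R26WT first. In edgeR's test this was a log2 fold change of 0.64 (SE 0.19, unadjusted p = 0.00149, adjusted p = 0.464) on day 3 and of 0.79 (SE 0.21, unadjusted p = 0.000411, adjusted p = 0.445) on day 7. Over both days it was 0.70 (SE 0.14), a 1.63-fold higher accessibility, with an unadjusted p of 8.38e-06 and an adjusted p of 0.0603 by Benjamini-Hochberg. This p ranked 32 among 240778 windows and missed the threshold.

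The window's place at the threshold depended on the processing. In edgeR's test its adjusted p over both days was 0.0111 when the minimum mean count of a tested window was 50, 0.0249 with total counts for scaling, and between 0.0610 and 0.213 with each mouse left out. The 2 extreme values came from the 2 shallowest libraries, where the window held 50 counts (R26TIR1(F74G), day 3) and 12 counts (R26WT, day 7). Without both libraries the log2 fold change was 0.54 (SE 0.14, adjusted p = 0.121 by edgeR), and the 6 remaining R26WT mice, from 3.04 to 4.25 CPM, stayed below the 6 remaining R26TIR1(F74G) mice, from 4.47 to 5.94 CPM. The part of depth in the difference was not tested further.

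**Figure D4:**
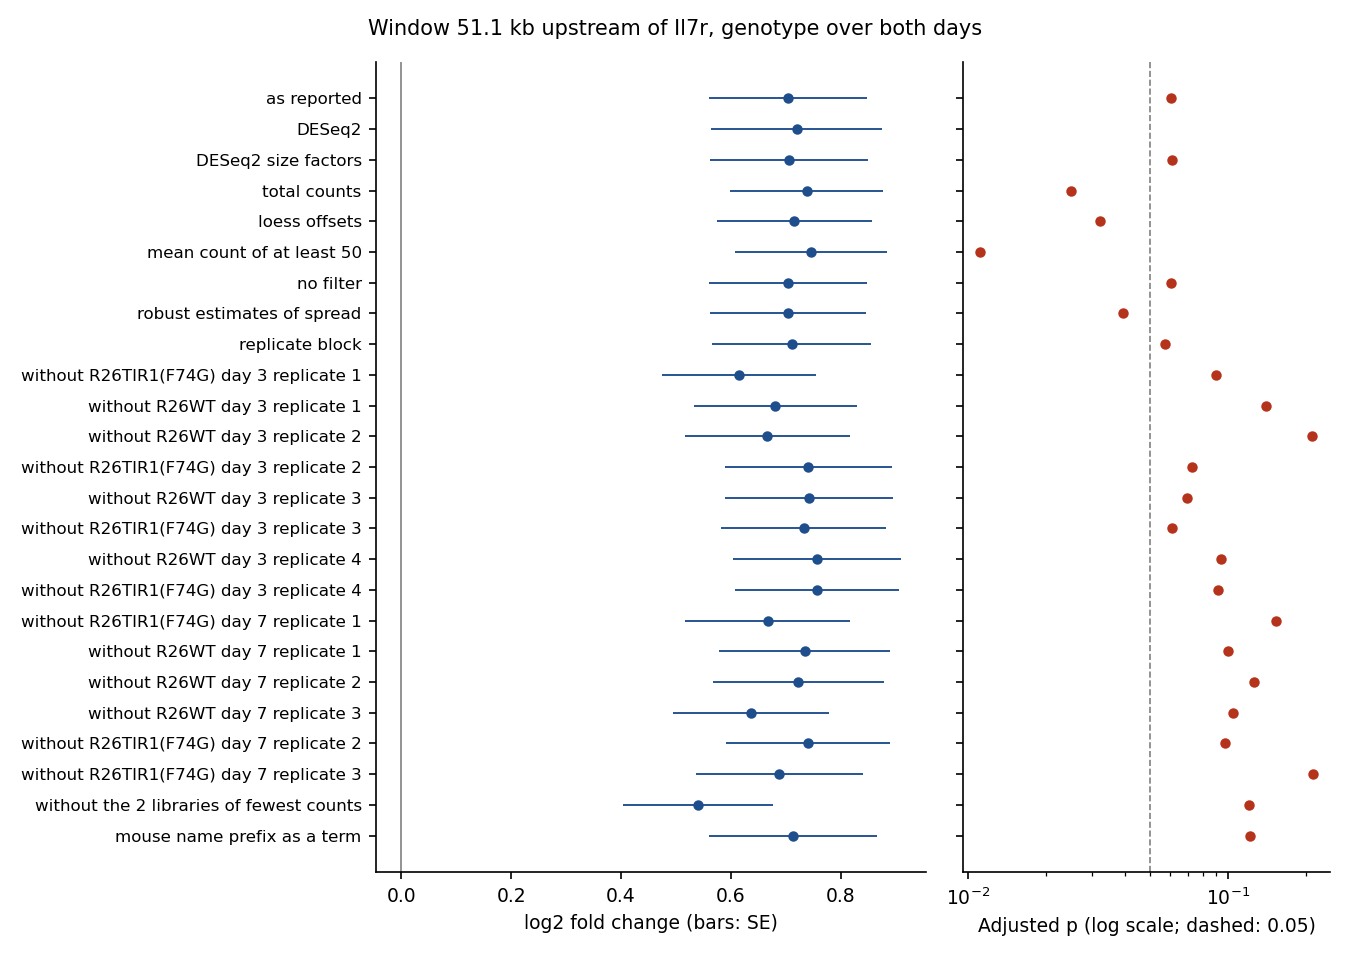
Log2 fold change with SE (left) and adjusted p on a log axis (right) of the window 51.1 kb upstream of Il7r, R26TIR1(F74G) over R26WT with both days in one fit, as reported and under each alternative; DESeq2 gave no adjusted p. The fold change lies between 0.54 and 0.76 under all alternatives, and the adjusted p lies on both sides of 0.05.

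The neighbours of this window were higher in R26TIR1(F74G) mice to a lesser degree. The window 50.7 kb upstream held 5.03, 5.19 and 4.76 CPM in R26TIR1(F74G) mice on day 7 and 4.52, 3.95 and 1.5 CPM in R26WT mice, without overlap (log2 fold change 0.45, SE 0.21, adjusted p = 0.831 by edgeR). The value of 1.5 CPM was 10 counts in the shallow R26WT library of day 7. On day 3 this window overlapped between genotypes, with 3.56 ± 0.719 CPM in R26WT and 4.05 ± 0.993 CPM in R26TIR1(F74G) mice (SD, n = 4). Over both days its log2 fold change was 0.33 (SE 0.15, adjusted p = 0.706 by edgeR).

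Summed over the non-overlapping windows from 50701 to 51623 bp upstream, the stretch held from 8.47 to 10.7 CPM in R26WT and from 12 to 14.6 CPM in R26TIR1(F74G) mice on day 3. The 14.6 CPM came from the shallowest library, replicate 1 of R26TIR1(F74G). On day 7 the ranges were from 5.85 to 9.76 CPM and from 12.3 to 13.5 CPM, where 5.85 CPM was the shallow R26WT library. The stretch did not overlap between genotypes on either day, and as it holds the chosen window these ranges are a description only.

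**Figure D5:**
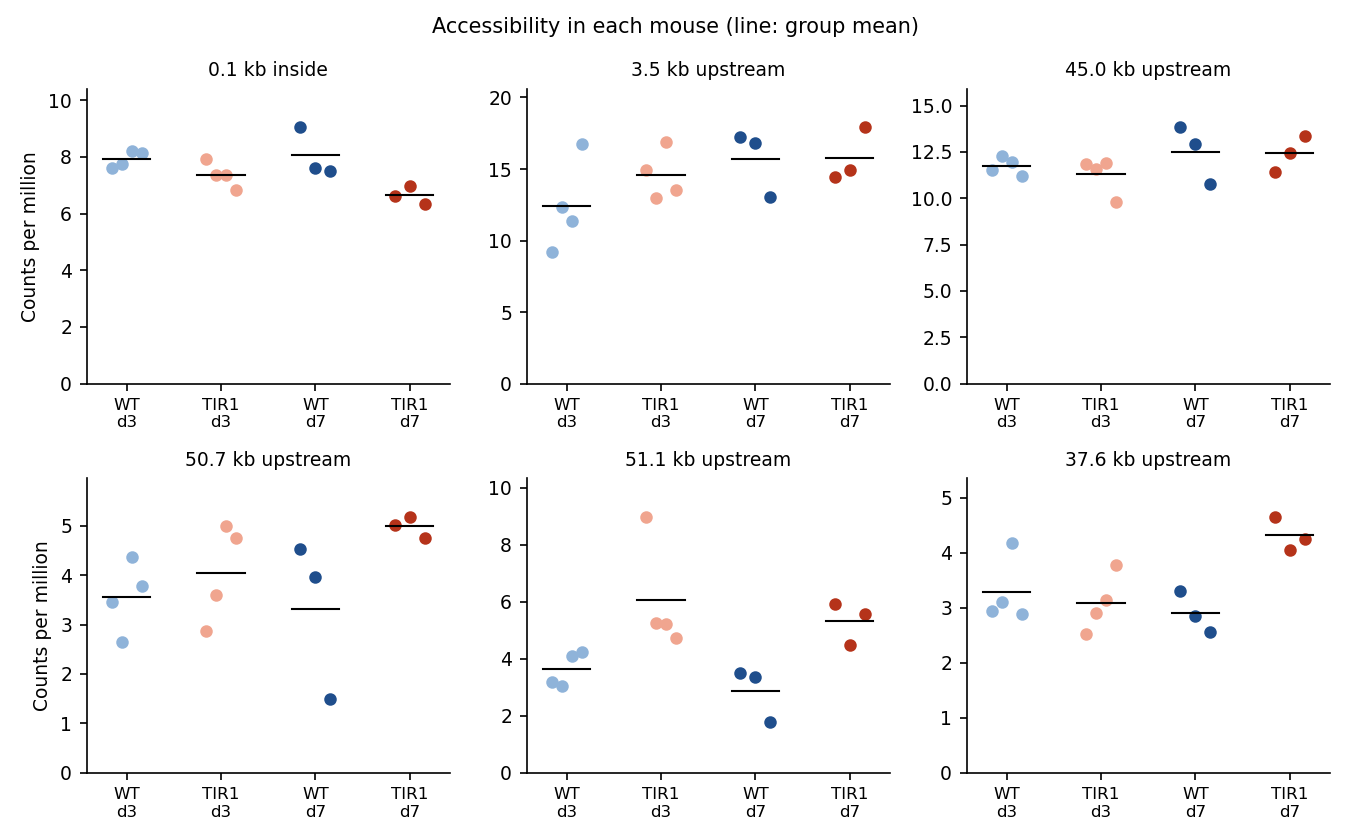
CPM (vertical axes, from 0) of 6 Il7r windows in each mouse, by genotype (WT, R26WT; TIR1, R26TIR1(F74G)) and day (d3, d7), with the group mean as a line. In the window 51.1 kb upstream every R26TIR1(F74G) mouse, from 4.47 to 8.99 CPM, is above every R26WT mouse, from 1.80 to 4.25 CPM; in the windows 3.5 kb and 45.0 kb upstream the genotypes overlap.

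At the start site the difference ran in the opposite direction and was smaller. The window 105 bp inside the gene held 7.62, 7.74, 8.20 and 8.14 CPM in R26WT and 7.91, 7.35, 7.38 and 6.84 CPM in R26TIR1(F74G) mice on day 3. On day 7 it held 9.04, 7.62 and 7.5 CPM in R26WT and 6.63, 6.97 and 6.32 CPM in R26TIR1(F74G) mice. The groups overlapped on day 3 but not on day 7. In edgeR's test the log2 fold change was -0.12 (SE 0.15, adjusted p = 0.907) on day 3, -0.29 (SE 0.16, adjusted p = 0.861) on day 7 and -0.19 (SE 0.11, adjusted p = 0.786) over both days.

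The most accessible window, 3.5 kb upstream, was alike in the genotypes on day 7. It held 17.2, 16.8 and 13 CPM in R26WT and 14.4, 15.0 and 17.9 CPM in R26TIR1(F74G) mice (log2 fold change -0.02, 95% interval from -0.29 to 0.25). On day 3 it held 9.18, 12.4, 11.3 and 16.8 CPM in R26WT and 14.9, 13, 16.9 and 13.5 CPM in R26TIR1(F74G) mice (log2 fold change 0.22, SE 0.15, adjusted p = 0.772 by edgeR). One R26WT mouse of day 3 lay among the R26TIR1(F74G) mice, and the other 3 lay below them.

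The windows 45.0 kb upstream and 1.6 kb inside the gene overlapped between genotypes on both days. Over both days their log2 fold changes were -0.05 (95% interval from -0.24 to 0.14) and 0.03 (95% interval from -0.17 to 0.23). The window 45.3 kb upstream was higher in R26TIR1(F74G) mice on day 7, with 8.93, 8.64 and 9.06 CPM against 7.36, 7.21 and 5.40 CPM, and did not overlap (log2 fold change 0.37, SE 0.16, adjusted p = 0.803 by edgeR). The 5.40 CPM came from the shallow R26WT library. On day 3 this window overlapped, with 8.21 ± 1.11 against 7.58 ± 1.34 CPM (SD, n = 4).

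Of the other windows with the smallest p, the one 37.6 kb upstream (chr15:9567466-9567667) had higher values in R26TIR1(F74G) mice on day 7. It held 3.29, 2.85 and 2.55 CPM in R26WT and 4.65, 4.05 and 4.25 CPM in R26TIR1(F74G) mice on day 7 (log2 fold change 0.55, SE 0.20, adjusted p = 0.760 by edgeR), and 3.28 ± 0.60 against 3.08 ± 0.530 CPM (SD, n = 4) on day 3. The 2.55 CPM came from the shallow R26WT library. The difference between the days was 0.61 on the log2 scale (SE 0.29) and did not pass edgeR's interaction test (adjusted p = 0.784). The window 59.7 kb upstream (chr15:9589575-9589776) was the second least accessible of the locus, with 0.843 CPM and between 3 and 25 counts per mouse, and its log2 fold change on day 3 was 1.10 (SE 0.41, adjusted p = 0.549 by edgeR). The window 4.1 kb upstream (chr15:9533908-9534109) held 2.33, 2.38 and 2.85 CPM in R26WT and 3.32, 3.16 and 3.64 CPM in R26TIR1(F74G) mice on day 7, without overlap, and its log2 fold change over both days was 0.39 (SE 0.17, adjusted p = 0.676 by edgeR).

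Groups that do not overlap were common in the whole table on single days. On day 7 R26TIR1(F74G) mice were above R26WT mice without overlap in 7 Il7r windows and below them in 7, where all windows gave 5.81% and 6.02%. These are counts of windows, not of separate regions. The windows above included ones from 37506 to 37625 bp upstream that overlap and share reads. Those below included overlapping ones from 80417 to 80563 bp upstream. On day 3 the counts were 2 and 2, where all windows gave 2% and 2.11%. With all 7 mice of each genotype the window 51.1 kb upstream was the 1 Il7r window above without overlap, and 0 were below, where all windows gave 0.0527% and 0.0635%.

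The genotype difference at Il7r windows was not shown to change from day 3 to day 7. The interaction of day and genotype called 0 of 60 Il7r windows (0% of all windows), with 2 at an unadjusted p under 0.05 (6.32% of all windows). For the window 51.1 kb upstream the difference between the days was 0.15 on the log2 scale (SE 0.29, adjusted p = 0.961 by edgeR).

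Within a genotype the locus also differed little between days. From day 3 to day 7, 0 of 59 Il7r windows were called in R26WT mice (0.003% of all windows) and 0 of 60 in R26TIR1(F74G) mice (0% of all windows), and 1 and 3 had an unadjusted p under 0.05, against 5.25% and 6.96% of all windows. DESeq2 called 0 in both and in the interaction, with 0, 1 and 0 at an unadjusted p under 0.05 in R26WT, R26TIR1(F74G) and the interaction. These DESeq2 counts also have no share of all windows beside them. The 1 window in R26WT mice was the one 3.5 kb upstream, at 12.4 ± 3.19 CPM (SD, n = 4) on day 3 and 15.7 ± 2.31 CPM (SD, n = 3) on day 7 (log2 fold change 0.35, SE 0.15, adjusted p = 0.926 by edgeR).

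The other genes of the pathway showed as few calls. Windows of 21 genes of IL-7 and TSLP signalling, Il7r left out, numbered 678, of which 0 were called higher and 0 lower between genotypes by edgeR in each of the 3 genotype comparisons. Over both days 8 of them were higher and 47 lower at an unadjusted p under 0.05, 8.11% in all, with a median log2 fold change of -0.04, against 0.0034 for all windows. Among all windows 6.73% passed at this level, 3.16% higher and 3.57% lower, and 0.0112% were called. The split differed by day. On day 3, 12 of the pathway windows were higher and 40 lower (7.74%, against 7.55% of all windows). On day 7, 20 were higher and 18 lower (5.63%, against 5.95%). At the start sites of its receptor partners the log2 fold change over both days was -0.26 (SE 0.09, adjusted p = 0.599 by edgeR) for Il2rg, the common γ chain, and 0.05 (SE 0.09, adjusted p = 0.958) for Crlf2. Jak3, the kinase bound to the γ chain, stood at -0.22 (SE 0.11, adjusted p = 0.724), with -0.42 on day 3 and 0.02 on day 7. The anti-apoptotic target Bcl2 stood at 0.07 (SE 0.09, adjusted p = 0.938). One window serves the start sites of both Stat5a and Stat5b, the signal transducers, and stood at -0.34 (SE 0.13, adjusted p = 0.609 by edgeR). The cytokine gene Il7, in a window of only 1.25 CPM on average, stood at 0.46 (SE 0.26, adjusted p = 0.794 by edgeR). Its log2 fold change was 0.98 on day 3 and -0.23 on day 7.

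Transcription factors described as regulators of Il7r were counted in the same way. Of 620 windows of 13 such genes 0 were called in either direction in any of these comparisons, where at most 0.0112% of all windows were called, and over both days 7.26% had an unadjusted p under 0.05, 16 higher and 29 lower. At this level 10 were higher and 28 lower on day 3 (6.18%, against 7.55% of all windows), and 28 higher and 24 lower on day 7 (8.39%, against 5.95%). The start site window of Runx3 had a log2 fold change of -0.48 (SE 0.10, adjusted p = 0.0834 by edgeR) over both days. This adjusted p was the smallest of the 620 windows in that comparison. The start site windows of the other listed factors, where there was one, lay between -0.25 for Runx1 and 0.03 for Nr3c1. That of Foxo1, an activator, stood at -0.07 (SE 0.09, adjusted p = 0.938 by edgeR). Of 609 windows of 8 genes of resting T cells 0 were called, at the same share of all windows, 6.57% had an unadjusted p under 0.05 over both days, and their median log2 fold change was -0.02. The start site of the homing gene Ccr7 in this list stood at -0.27 (SE 0.09, adjusted p = 0.541 by edgeR).

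Markers of other cell types were set beside the Il7r values, since the libraries are bulk samples in which fewer cells of a type and less accessibility per cell cannot be told apart. Summed over 2 B cell markers the level was from 4.10 to 4.85 CPM in R26WT and from 3.73 to 6.29 CPM in R26TIR1(F74G) mice on day 3, and from 3.36 to 7.65 CPM and from 2.99 to 5.01 CPM on day 7. The 5 myeloid markers summed to between 21.8 and 28.6 CPM, and the 2 CD8 T cell markers to between 11.3 and 15.5 CPM, over all mice. The 1 NK cell marker with a window, Eomes, stood between 4.26 and 5.97 CPM. All these ranges overlapped between genotypes on both days, and 0 of these markers were called. The median log2 fold change of the B cell markers was -0.16 for day 3, -0.32 for day 7 and -0.23 in the joint fit. The 6 Treg and CD4 T cell markers summed to between 68.7 and 78.2 CPM in R26WT and between 56.8 and 73.9 CPM in R26TIR1(F74G) mice on day 3, with a median log2 fold change of -0.32, and to between 64.2 and 75.1 CPM and between 64.1 and 66.7 CPM on day 7, with a median of -0.0014. The part of cell composition in the Il7r values was not tested.

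The loci of 2 genes with known roles in Treg and resting T cells gave 0 calls as well, where at most 0.0112% of all windows were called. Il2ra, the IL-2 receptor α chain, had a median log2 fold change over both days of -0.10 over 53 windows, and Tcf7, a factor of resting T cells, of 0.0017 over 42 windows, beside 0.04 over the 60 Il7r windows. At an unadjusted p under 0.05 there were 9 Tcf7 windows on day 7 (6 higher, 3 lower) and 9 over both days (5 higher, 4 lower), 21.4% each time, and 4 Il2ra windows (7.55%), all lower, against 5.95% and 6.73% of all windows. The flanking genes Capsl and Spef2 had medians of 0.11 over 24 windows and 0.04 over 34 windows, with smallest adjusted p of 0.749 and 0.706 by edgeR.

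Across the 14 mice the genes whose summed accessibility was most like that of Il7r, among 11608 genes with at least 5 windows, were Pno1 (Pearson r = 0.86), Plekhf2 (0.86), Actr6 (0.86), Cggbp1 (0.85) and Uchl5 (0.84). The flanking genes Capsl and Spef2 stood at 0.72 and 0.70, and Il2ra and Tcf7 at 0.04 and 0.14. These values are a description without a test, since the points share their libraries, and the log2 sum of Il7r had an r of 0.27 with the log2 library total.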

How the data were processed

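The members and gene lists were chosen with earlier results of these data known. The authors aligned reads with Bowtie2 (build mm10 per the labels), called peaks with MACS2, merged peaks reproducible between replicates and counted reads at summits with featureCounts. The deposited values are raw counts in 240778 windows, and filters, duplicates and transposase offsets are fixed in them. All 14 columns were matched to mice by name, and 0 were left unmatched. Start sites came from RefSeq (GRCm38.p6), with strand known for 21437 of 21896 protein-coding genes.

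The test was edgeR 4.0.16's two-sided quasi-likelihood test (R 4.3.3, limma 3.58.1) with TMM scaling, for windows whose counts averaged 10 or more in the libraries compared, Benjamini-Hochberg adjustment over all windows and a threshold of 0.05. It was fitted per day, on both days together with a term for day, for the interaction and per genotype between days. All deposited windows have a mean of at least 10.07 counts. CPM values use TMM factors over the 14 libraries, SEs follow from fold change and test statistic, and 95% intervals are 1.96 SEs. The locus sum took non-overlapping windows in order of mean count. Windows named were the 5 most accessible, the one nearest the start site, and those of the smallest p (3 over both days, 2 per day). The 18 pairs of replicates differed by 0.64 to 2.58 chi-square per degree of freedom over Il7r windows, no pair was identical, and counting errors assume independent reads.

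Alternatives were DESeq2 1.42.0, its size factors, total counts, loess offsets, other filters and thresholds, windows within 10 kb, leaving out mice, a replicate block, the mouse name prefix and a fit of all 14 libraries. Robust estimates of spread and leaving out the 2 libraries of fewest counts were chosen after seeing the data.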

Additional observations from a re-analysis of the deposited data

Results flagged for a closer look

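In groups of 4 mice, single values far from the other 3 were sought in 20 sets of values (9 windows and the locus sum in each day 3 group), and chance alone flags about 1 in 20 such sets. There were 3. In the window 51.1 kb upstream of Il7r, replicate 1 of R26TIR1(F74G) on day 3 stood at 8.99 CPM, while the other 3 mice lay between 4.75 and 5.26 CPM, and this was the library with the fewest counts. In the window 37.6 kb upstream, replicate 3 of R26WT on day 3 stood at 4.17 CPM, against 2.89 to 3.11 CPM in the others. In the window 45.0 kb upstream, replicate 4 of R26TIR1(F74G) on day 3 stood at 9.81 CPM, against 11.6 to 11.9 CPM in the others.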

How the results depend on the processing

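Over both days 1 Il7r window, the one 51.1 kb upstream, passed in place of 0 with a threshold of 0.1, total counts, loess offsets, a mean count of at least 50 and, chosen after seeing the data, robust estimates of spread (adjusted p 0.0249, 0.0323, 0.0111 and 0.0393 in edgeR's last 4 fits); DESeq2 gave it an unadjusted p of 3.81e-06 and no adjusted p. Its log2 fold change was positive in all 24 alternatives, and leaving out single mice gave 0.61 to 0.76. The other 119 counts of called Il7r windows under alternatives stayed at 0. Those within 10 kb leave out the window 51.1 kb upstream, so they could not change through it. The same holds for DESeq2 over both days, which gave it no adjusted p. Same-numbered mice did not deviate together (correlations from -0.079 to 0.065 over the 7 pairs), so the numbers were not taken as pairs; with a replicate block 0 Il7r windows were called in every comparison (adjusted p = 0.0572 for the window 51.1 kb upstream over both days). With a term for the mouse name prefix its adjusted p was 0.121. Of 390 fold changes of named windows under alternatives 16 changed direction, the lowest of their adjusted p being 0.942. On day 7 the window 3.5 kb upstream ranged from -0.12 to 0.049 without single mice (positive values 0.018, 0.028, 0.044 and 0.049), the window 45.0 kb upstream from -0.10 to 0.043 (positive 0.025 and 0.043), and the window 1.6 kb inside from -0.046 to 0.095 (negative -0.046 and -0.040). On day 3 the window 45.0 kb upstream gave 0.038 with loess offsets, 0.027 with a mean count of at least 50 and from -0.089 to 0.0050 without single mice, and the window 1.6 kb inside from -0.055 to 0.10 (negative -0.055 and -0.033). Over both days the latter gave from -0.014 to 0.067 without single mice (negative -0.014 and -0.00026) and -0.047 without the 2 libraries of fewest counts; the cause was not tested. Differences of the locus sum moved by less than the SD between mice, and that of day 7 was -0.040 within 10 kb and -0.023 without the shallow R26WT library. Windows with few counts, such as the one 59.7 kb upstream, limit what could be detected.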
